A study of Homo sapiens with 12 samples.

Results

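Metallothioneins were described in Huh7 hepatocellular carcinoma cells after knockdown of FAM111B. The 10 genes were chosen by name from the 60666 genes of the Huh7 table: the metallothioneins MT1A, MT1E, MT1F, MT1G, MT1H, MT1M, MT1X and MT2A, with their zinc sensor MTF1 and the zinc exporter SLC30A1. The rule itself uses no measured value, though the genes were proposed with earlier results of these data known. Huh7 is an established human liver cancer line. The control cells carried a lentiviral control sequence and the shFAM111B cells a lentiviral short hairpin RNA against FAM111B, and both were stable lines kept under puromycin selection in high-glucose medium with foetal bovine serum. Each group had 3 libraries of polyA-selected RNA. Nothing in the labels says that the libraries of a group came from separate cultures, so p-values measure only the spread between these libraries, which may be technical. The targeted gene, FAM111B, fell from 8.04 ± 0.229 TPM (a length-scaled share of the transcripts in a library; SD, n = 3) to 0.977 ± 0.146 TPM. The 6 Hep3B samples of the series were not analysed here.

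Metallothioneins are very small proteins in which cysteines hold zinc, copper and other metal ions, and the liver is one of their main sites of expression. When free zinc rises in a cell, the transcription factor MTF1 binds it, enters the nucleus and switches on metallothionein genes and SLC30A1 through short metal response elements in their promoters. Glucocorticoids and oxidative stress also induce metallothioneins. SLC30A1, also called ZnT1, carries zinc out of the cell across the plasma membrane.

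The coding sequences of the paralogs are close to identical. In the GENCODE v29 transcripts, all 8 coding sequences had 183 bases without the stop codon, spread over 3 exons, and 20 of the 61 codons encoded cysteine. Identity between pairs ran from 88.5% (MT1F with MT1X) to 95.1% (MT1G with MT2A). MT2A is shown as the gene with the highest level, MT1X as the second, MT1G as the one of these 4 with the largest fold change and MT1F as the one with the smallest. Capitals mark the cysteine codons.
MT2A: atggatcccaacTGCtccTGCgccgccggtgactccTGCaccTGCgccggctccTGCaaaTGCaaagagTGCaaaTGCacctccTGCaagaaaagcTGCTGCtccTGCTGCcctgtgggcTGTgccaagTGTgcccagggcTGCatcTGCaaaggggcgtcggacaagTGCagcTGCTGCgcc
MT1X: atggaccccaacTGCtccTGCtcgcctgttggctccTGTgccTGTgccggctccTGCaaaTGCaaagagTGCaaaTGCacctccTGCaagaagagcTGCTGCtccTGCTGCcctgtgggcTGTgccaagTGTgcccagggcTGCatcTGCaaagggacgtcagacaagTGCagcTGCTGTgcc
MT1G: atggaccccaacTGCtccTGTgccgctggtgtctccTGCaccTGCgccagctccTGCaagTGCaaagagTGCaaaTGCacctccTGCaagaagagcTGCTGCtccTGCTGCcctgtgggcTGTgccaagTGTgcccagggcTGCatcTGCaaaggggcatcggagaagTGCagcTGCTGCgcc
MT1F: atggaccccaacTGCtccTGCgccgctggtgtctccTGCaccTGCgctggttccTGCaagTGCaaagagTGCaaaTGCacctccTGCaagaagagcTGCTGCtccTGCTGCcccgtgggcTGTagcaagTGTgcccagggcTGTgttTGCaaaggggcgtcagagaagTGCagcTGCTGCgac
Over whole transcripts the genes can mostly be told apart. Of all windows of 75 nt in 1 transcript of each gene, between 89.2% (MT1H) and 100% (MT1A, MT1F and MT2A) were found in no transcript of another metallothionein gene or pseudogene. Reads from the shared stretches are divided by estimation, so the values of single paralogs carry that uncertainty.

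The 8 metallothionein genes lie together on chromosome 16 of GRCh38, from the start of MT2A at 56608199 to the end of MT1X at 56684196. MT1G is on the minus strand and the others on the plus strand. MT1X also overlaps the noncoding gene model AC026461.1 on the same strand. MTF1 (chromosome 1, 37809567 to 37859620) and SLC30A1 (chromosome 1, 211571568 to 211578742) are both on the minus strand.

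Upstream sequence was found in the RefSeq promoter table (GRCh38.p14) for 5 of the 10 genes: MT1H, MT1X, MT2A, MTF1 and SLC30A1. The core of the metal response element was searched as TGCACNC or TGCGCNC on both strands of the 250 bases before the RefSeq start, where the letter N stands for any base. MT1H held 8 matches, MT2A 7, MT1X 4, SLC30A1 1 and MTF1 0. Of 35116 promoters in the table, 24.8% held at least 1 match, 0.37% at least 4, 0.0313% at least 7 and 0.0171% at least 8. Upstream bases outside the GENCODE v29 gene model are shown for MT1H, MT1X and SLC30A1, with the matches in capitals. The sequence is written along the strand of the gene. MTF1 is not shown, because it held no match, and MT2A is not, because a GENCODE v29 transcript covers its whole window. The first match of MT1H, on the opposite strand, began at base -223, counted back from the start, and the single match of SLC30A1 at base -49.
MT1H, chr16:56669564-56669813, plus strand: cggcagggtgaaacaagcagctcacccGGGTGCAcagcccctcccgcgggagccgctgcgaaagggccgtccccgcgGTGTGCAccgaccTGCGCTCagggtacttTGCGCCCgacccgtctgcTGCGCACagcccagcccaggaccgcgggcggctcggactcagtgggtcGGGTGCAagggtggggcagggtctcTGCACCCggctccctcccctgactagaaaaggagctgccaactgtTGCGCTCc
MT1X, chr16:56682220-56682423, plus strand: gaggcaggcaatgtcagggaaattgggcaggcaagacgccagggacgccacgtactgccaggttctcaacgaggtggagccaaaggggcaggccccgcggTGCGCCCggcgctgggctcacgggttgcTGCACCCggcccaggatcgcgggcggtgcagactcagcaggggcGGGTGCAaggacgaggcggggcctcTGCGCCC
SLC30A1, chr1:211579162-211579411, minus strand: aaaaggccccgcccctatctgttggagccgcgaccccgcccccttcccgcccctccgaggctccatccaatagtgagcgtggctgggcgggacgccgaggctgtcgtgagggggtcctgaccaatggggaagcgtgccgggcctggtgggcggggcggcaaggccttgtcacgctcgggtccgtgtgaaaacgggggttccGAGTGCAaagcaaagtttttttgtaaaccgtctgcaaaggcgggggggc
These matches describe letters in the reference, and no binding was measured.

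The libraries were compared before the genes. Correlations of log2(TPM + 1) over the 14394 tested genes ran from 0.969 to 0.984 within groups and from 0.865 to 0.883 between groups. 17 genes of 5S ribosomal RNA were listed at 0 TPM in the controls and summed to 22970, 33059 and 1486 TPM in shFAM111B replicates 1 to 3, so replicate 3 stood apart from the other shFAM111B libraries. All 9 hepatocyte markers passed the filter of at least 1 TPM in at least 3 libraries. Of these, 6 were lower and 3 higher in every shFAM111B library than in any control library, as were 52.8% and 22.5% of all tested genes. Against -0.36 for all tested genes, the markers had a median log2 fold change of -0.56. Their summed level was 27329 to 27903 TPM in control cells and 40692 to 45672 TPM in shFAM111B cells, a difference carried mostly by AFP. AFP (from 7274 to 23062 TPM), APOA1 (from 3233 to 7010 TPM) and TTR (from 835 to 1718 TPM) rose, and APOB (from 236 to 48.2 TPM) and HNF4A (from 98.1 to 40.6 TPM) fell. The other 4 were not called and were lower in shFAM111B cells, among them, named after its values were seen, ALB, albumin, at 6444 and 4161 TPM. The call of HNF4A was lost under 3 of the 4 other scalings (-0.84 to -0.72) and that of TTR after quantile normalisation (0.55) and without shFAM111B replicate 3 (0.99). With the length trend removed, the calls of HNF4A (-0.56), TTR (0.40) and APOA1 (0.60) were lost, and with centring on short genes those of APOA1 (0.73) and TTR (0.66). The 6 markers of fibroblasts, leukocytes and endothelium summed to 18.1 to 22 TPM in control cells and 25.6 to 27.2 TPM in shFAM111B cells, most of it from CD68, and of the 2 that passed the filter, CD68 and PECAM1, 0 were called. VWF was listed at 0.03 TPM or less in every library. In bulk RNA, fewer cells of a type and less RNA per cell cannot be told apart.

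All 10 genes had lower TPM in every shFAM111B library than in any control library. Over all tested genes, 52.8% did so. Genes were called at a change of 2-fold or more, computed from log2(TPM + 1), and P under 0.05 in limma, the thresholds of the study. 7 of the 10 genes were called lower and 0 higher, where 23.7% of all tested genes were called lower and 6.82% higher. The called genes were SLC30A1, MT1H, MT1G, MT1X, MT1A, MT1M and MT2A. MT1E, MT1F and MTF1 missed the 2-fold limit, and with any fold change all 10 had an adjusted p under 0.05 and a lower level, where 50.9% of all tested genes were lower and 21.1% higher by the same rule. The median log2 fold change of the 10 genes was -1.15, against -0.36 for all tested genes.

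The median of all genes depended on how libraries were scaled, and so did the smaller fold changes. With TPM as deposited, 3409 genes were called lower and 981 higher (22.3% of calls higher). The share of higher calls was 53% after median-of-ratios scaling, with the median gene at 0.03, and 66.6% after median centring, with the median gene at 0.17. Relative to the median gene of the same setting, every one of the 10 genes was lower in all settings in which it could be fitted, 17 for most genes and 16 for MT1H and MTF1. Most scalings move a gene and the median gene by nearly the same amount, and the other settings share libraries. Much of this agreement was therefore fixed in advance, and the settings are not separate checks. The distance was smallest for MT1F, from -1.40 to -0.03, and was -2.63 to -1.74 for SLC30A1.

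**Figure D1:**
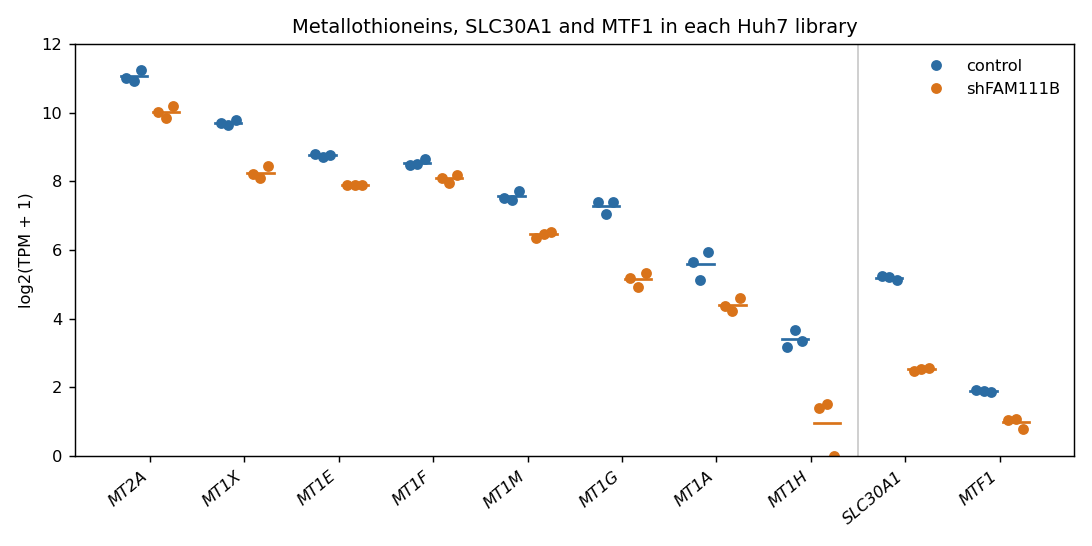
Level of each gene as log2(TPM + 1) on the vertical axis in the 3 control (blue) and 3 shFAM111B (orange) libraries, with points for libraries and lines for group means. The groups are apart for each of the 10 genes, and the point of MT1H at 0 is the library in which it was listed at 0 TPM.

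MT2A, the most abundant metallothionein, was measured at 2065, 1942 and 2401 TPM in the control libraries. It was measured at 1036, 923 and 1167 TPM in the shFAM111B libraries. The highest shFAM111B library thus lay far below the lowest control library, and the control cells averaged 2136 ± 238 TPM against 1042 ± 122 TPM. A log2 fold change of -1.04 was found (SE 0.108, limma adjusted p = 0.000115), close to the 2-fold limit. The call was lost without control replicate 3 or without shFAM111B replicate 2 (-0.95 in both), and MT2A was at -0.62 to -0.50 under 3 of the 4 other scalings.

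MT1X, the second most abundant, stood at 823, 797 and 881 TPM in control cells and at 293, 275 and 348 TPM in shFAM111B cells. Each shFAM111B library was far below each control library, and the mean fell 2.73-fold from 834 ± 43 to 306 ± 38.2 TPM (log2 fold change -1.45, SE 0.0908, adjusted p = 1.19e-05). The value was -1.0 and -0.92 after median-of-ratios scaling and median centring, where the call was lost.

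MT1G had the largest ratio among the 7 metallothioneins that were above 0 in every library. Its levels were 168, 131 and 167 TPM in control cells and 35.2, 29.2 and 39.5 TPM in shFAM111B cells. The lowest control library held more than 3 times the TPM of the highest shFAM111B library. The mean fell 4.48-fold from 155 ± 20.8 to 34.6 ± 5.16 TPM (log2 fold change -2.13, SE 0.135, adjusted p = 1.27e-05), and under the 4 other scalings the log2 fold change was -2.01 to -1.60 and remained called.

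MT1M and MT1A fell by about the same factor at lower levels. MT1M was at 182, 174 and 209 TPM in control cells and at 81.2, 87.8 and 91.1 TPM in shFAM111B cells (log2 fold change -1.11, SE 0.0796, adjusted p = 2.09e-05). MT1A was at 49.7, 34.2 and 60.8 TPM in control cells and at 19.7, 17.6 and 23.3 TPM in shFAM111B cells (-1.19, SE 0.207, adjusted p = 0.00164). The control libraries of MT1A varied more than those of MT1M, and the groups were apart in both genes. Their calls were lost after median-of-ratios scaling, upper-quartile scaling and median centring (MT1M -0.70 to -0.58, MT1A -0.79 to -0.65), and the call of MT1A also after quantile normalisation.

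MT1H was the lowest of the metallothioneins. It was at 7.99, 11.7 and 9.19 TPM in control cells and at 1.64 and 1.84 TPM in the first 2 shFAM111B libraries, and it was listed at 0 in the third. The groups did not overlap. With the pseudocount of 1 its log2 fold change was -2.42 (SE 0.399, adjusted p = 0.00121), and it was -1.94 without the library listed at 0, which is the one that stood apart in 5S ribosomal RNA. Without that library the log2 fold changes of the other 7 metallothioneins ranged from -2.23 (MT1G) to -0.51 (MT1F).

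MT1E and MT1F were not called. MT1E was at 448, 421 and 434 TPM in control cells and at 236, 238 and 235 TPM in shFAM111B cells, where the libraries lay within 3 TPM of each other. Its means were 434 ± 13.2 and 236 ± 1.5 TPM (log2 fold change -0.87, SE 0.0403, adjusted p = 4.37e-06). It was -1.18 and called after quantile normalisation, and -0.34 after median centring. MT1F was at 358, 360 and 398 TPM in control cells and at 275, 247 and 292 TPM in shFAM111B cells, the smallest difference of the family (-0.46, SE 0.0746, adjusted p = 0.00118). Its direction was not stable under scaling, with 0.08 after median centring and -0.72 after quantile normalisation.

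MTF1, the zinc-sensing activator, was expressed at a low level. It was at 2.75, 2.71 and 2.61 TPM in control cells and at 1.08, 1.13 and 0.74 TPM in shFAM111B cells, and its groups did not overlap. The ratio of the mean TPM, control over shFAM111B, was 2.74, while the log2 fold change with a pseudocount of 1 was -0.90 (SE 0.136, adjusted p = 0.000775), because the pseudocount shrinks the fold change of a gene near 1 TPM. With a pseudocount of 0.1 it was -1.38 and called. With the trend of fold change on transcript length and expression removed it was -0.17 (adjusted p = 0.323).

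SLC30A1, the zinc exporter, had the largest log2 fold change of the 10 genes with TPM as deposited and a pseudocount of 1, but not with a pseudocount of 0.1, where MT1H was at -3.78 and SLC30A1 at -2.88. Its levels were 37.2, 36.1 and 33.6 TPM in control cells and 4.54, 4.76 and 4.94 TPM in shFAM111B cells. The spread within each group was small against the gap between them, and the mean fell 7.51-fold from 35.6 ± 1.85 to 4.75 ± 0.2 TPM. On the log2 scale this was -2.67 (SE 0.0769, adjusted p = 1.89e-06), and 0.535% of all tested genes had a lower one. It was -2.71 to -2.64 when single libraries were left out and -2.30 to -2.14 under the 4 other scalings. With the trend on length and expression removed it was -1.79, nearer 0 than the value of each metallothionein but MT1F in that setting. It was called in each of these settings.

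**Figure D2:**
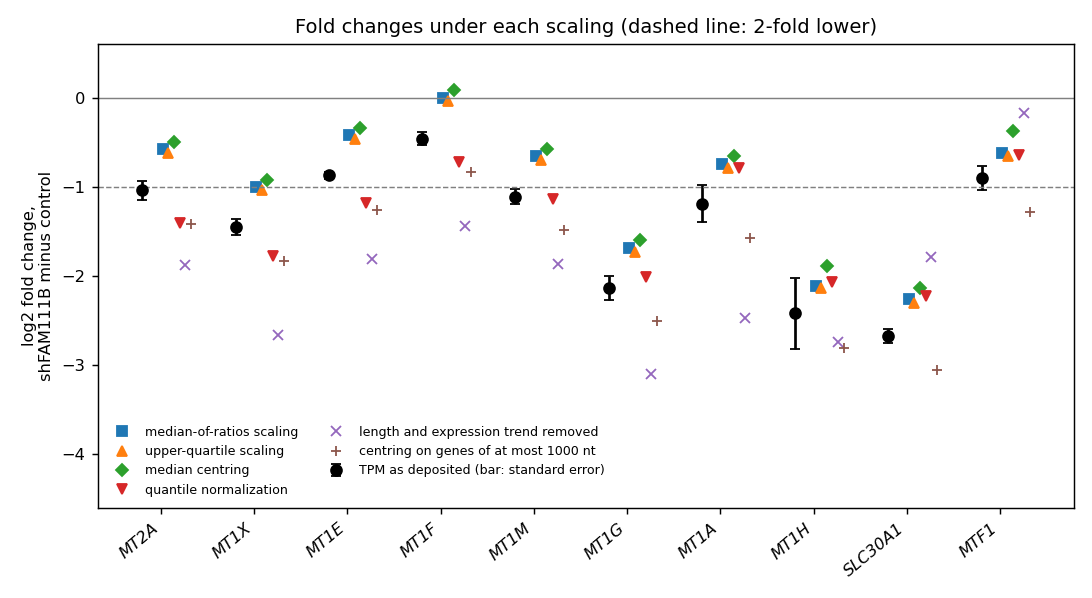
Each gene's log2 fold change, shFAM111B minus control, on the vertical axis, with the TPM as deposited in black (bars are standard errors) and 6 other scalings as coloured marks, and a dashed line at 2-fold lower. MT1G, MT1H and SLC30A1 lie below the dashed line under every scaling shown, and MT1F is the only gene of the 10 with a mark above 0 (0.08, median centring).

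The 8 metallothioneins together made up 4101, 3871 and 4559 TPM in the control libraries and 1978, 1819 and 2196 TPM in the shFAM111B libraries. This was 0.389% to 0.457% of all TPM in control cells and 0.186% to 0.221% in shFAM111B cells. The summed level is not free of how shared reads were divided among the 8 genes, because a read adds more TPM to a shorter transcript. Its mean was 4177 ± 350 TPM in control and 1998 ± 189 TPM in shFAM111B cells, a ratio of 2.09 (control over shFAM111B). Without MT2A the ratio was 2.14, so the lower sum did not rest on the most abundant gene. The log2 ratio of the sums, -1.06 with TPM as deposited, was -0.65 to -0.53 under the 3 scalings to which the sum was put.

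The family did not shift as a block. In control cells the order of levels was MT2A, MT1X, MT1E, MT1F, MT1M, MT1G, MT1A and MT1H, and the ranges of neighbours did not overlap. In shFAM111B cells MT1F stood above MT1E, and the ranges of MT1X (275 to 348 TPM) and MT1F (247 to 292 TPM) overlapped. Shares within the sum are free of library scaling, but not of length estimates or of how shared reads were divided. In the transcripts used for the 75 nt windows, MT1X had 450 nt, MT1G 406, MT1H 397 and MT1A 396. MT1F, MT1E, MT2A and MT1M had 690 to 829 nt. MT1X, MT1G and MT1H also had the lowest part of windows found in no other metallothionein (92.8%, 93.4% and 89.2%). The part of length or read division in the shares was not tested. MT1F made up 8.92% ± 0.326 of the sum in control cells and 13.6% ± 0.29 in shFAM111B cells (SD, n = 3), higher in each shFAM111B library than in any control library. The share of MT1X was 20% ± 0.635 and 15.3% ± 0.532, and that of MT1G 3.71% ± 0.355 and 1.73% ± 0.105, both lower in each shFAM111B library. So was the small share of MT1H, 0.232% ± 0.0594 and 0.0614% ± 0.0539, which was 0 in shFAM111B replicate 3. MT2A kept about the same share, 51.1% ± 1.4 and 52.1% ± 1.23, and its groups overlapped, as did those of MT1E, MT1M and MT1A.

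MT1G and MT1F had the largest and smallest fall among the metallothioneins above 0 in every library, so a gap in their ratio follows from the choice. The ratio of MT1G to MT1F was 0.469, 0.365 and 0.418 in control cells and 0.128, 0.118 and 0.135 in shFAM111B cells. The ratio of MT1X to MT2A, the pair of most abundant genes, was 0.399, 0.41 and 0.367 in control cells and 0.283, 0.298 and 0.299 in shFAM111B cells. Neither ratio overlapped between the groups. These are ratios of estimated TPM between close paralogs, and no test was made on them.

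**Figure D3:**
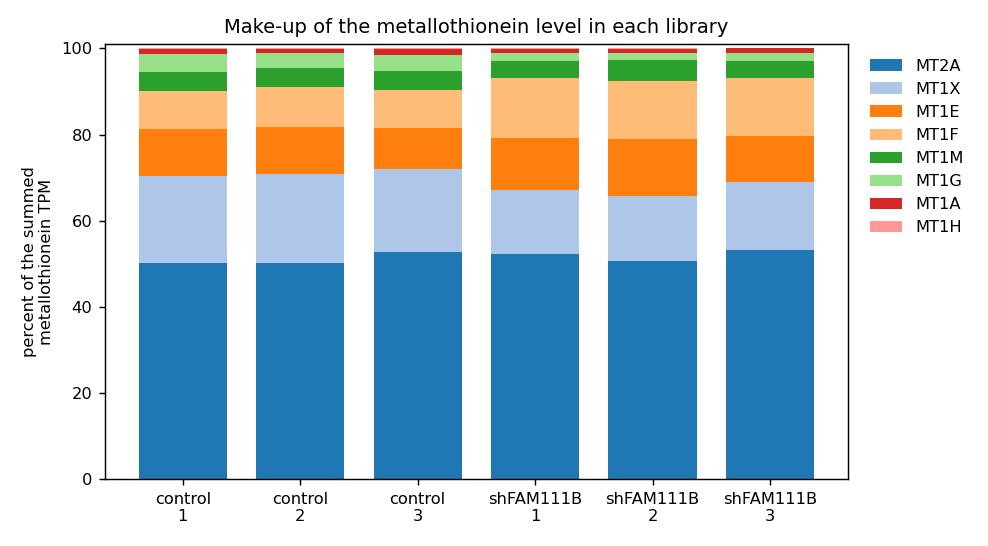
Percent of the summed metallothionein TPM (vertical axis) taken by each of the 8 genes in each library. MT2A takes about the same part of every bar, while the part of MT1F is larger and those of MT1X and MT1G are smaller in the 3 shFAM111B bars.

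Fold changes in these libraries varied with transcript length, and metallothionein mRNAs are among the shortest. The annotated length of the 8 genes (the longest protein-coding transcript in GENCODE v29) was 396 to 829 nt. Of 1626 tested genes of at most 1000 nt, 9.96% were called lower and 24.1% higher, and the median gene was at 0.45 on the log2 scale. Among the 567 of these that averaged 10 TPM or more, 32 (5.64%) were called lower and 172 (30.3%) higher, with a median of 0.71. Metallothioneins made up 6 of those 32 genes, namely MT1A, MT1G, MT1M, MT1X, MT2A and the pseudogene MT1L. MT1F, the gene with the smallest difference, was itself lower than all but 56 of the 567 short genes.

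Long genes were mostly lower. Of 3873 genes over 4000 and up to 8000 nt, 40.9% were called lower, with a median of -0.84. MTF1 (7972 nt) and SLC30A1 (5474 nt) belong to this class. With the pseudocount of 1, MTF1, at -0.90, lay near the median of its class, and SLC30A1, at -2.67, far below it. That pseudocount shrinks the value of MTF1, which was -1.38 with a pseudocount of 0.1, where no class median was computed. With the trend on length and expression removed from each library, 9 of the 10 genes were called lower, and MTF1 was the one that was not. Removing the trend itself moved each metallothionein down, MT1E from -0.87 to -1.81 and MT1F from -0.46 to -1.44. The calls of MT1E and MT1F there follow from that step. In that setting, 1320 of the 14251 tested genes with an annotated length were called lower and 1264 higher.

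The other metallothionein genes of the table were mostly listed at 0. Of 13, MT3 and MT4, the brain and squamous epithelium forms, and 8 pseudogenes or gene copies were listed at 0 in all 6 libraries. MT1L fell from 55.6 ± 8.25 to 14.5 ± 1.85 TPM (log2 fold change -1.87, adjusted p = 1.79e-05), and MT1JP from 10.9 ± 4.9 to 3.33 ± 2.05 TPM (-1.52, adjusted p = 0.0172). Leaving out control replicate 3 took the adjusted p of MT1JP to 0.0584, and its call was lost after median centring (-0.98) and quantile normalisation (-1.04). MT1B, named after its values were seen, was at 3.88 ± 1.3 TPM in control and 3.81 ± 1.25 TPM in shFAM111B cells, and its groups overlapped. All 3 lie inside the cluster.

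Of 8 neighbours of the cluster, 6 were tested, 1 was called lower and 0 higher, not far from the 23.7% and 6.82% of all tested genes. In 5 of the 6 every shFAM111B library was below every control library, where 52.8% of all tested genes were. OGFOD1, an oxygenase gene on the side of MT2A, fell from 37.3 to 11.6 TPM (log2 fold change -1.60, adjusted p = 1.04e-05), a call lost with the length trend removed (-0.83). The nearest tested genes of the list on either side, named after their values were seen, were BBS2, with 11.8 and 6.76 TPM in control and shFAM111B cells (-0.72, not called), and NUP93, with 62.7 and 67.6 TPM (0.11, not called).

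Zinc transporters of the ZnT family other than SLC30A1 were examined next. Of 9, 5 were tested, 3 were called lower and 0 higher. Of all tested genes, 23.7% were called lower and 6.82% higher. The median of the 5 was -1.01, against -0.36 for all tested genes. SLC30A9, a mitochondrial zinc transporter, fell from 43 ± 1.81 to 13.5 TPM (-1.61, adjusted p = 1.41e-05). SLC30A7, which loads zinc into the Golgi, fell from 7.73 ± 0.13 to 2.14 TPM (-1.48, adjusted p = 2.48e-05), and SLC30A10, known as a manganese exporter, from 35.4 ± 1.69 to 17 TPM (-1.01, adjusted p = 5.13e-05). The partners SLC30A5 and SLC30A6 of the early secretory pathway were not called. SLC30A5 was at 30.4 and 31.1 TPM in control and shFAM111B cells, with overlapping groups, and SLC30A6 at 11.8 and 5.55 TPM. The log2 fold change of SLC30A1 (-2.67) was larger than that of each of these 5 genes under TPM as deposited. With the length trend removed, 0 of the 5 were called, while SLC30A1 was. The call of SLC30A7 was also lost after median centring (-0.94), and that of SLC30A10 under all 4 other scalings (-0.62 to -0.48), without control replicate 1 (-0.98) and without shFAM111B replicate 3 (-0.94).

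Of 14 zinc importers of the ZIP family, 12 were tested, 2 were called lower and 0 higher, and the median was -0.19. The share called lower is not far from the 23.7% of all tested genes. SLC39A14, the importer of zinc, iron and manganese that is prominent in liver, fell from 223 ± 5.54 to 71.4 TPM (-1.63, adjusted p = 2.55e-06). SLC39A6 fell from 26.9 ± 1.58 to 7.72 TPM (-1.67, adjusted p = 4.53e-06). The abundant SLC39A7, which releases zinc from the endoplasmic reticulum, was at 124 and 172 TPM (0.46), SLC39A1 of the plasma membrane at 99.6 and 117 TPM (0.23) and SLC39A5 at 52.6 and 55.4 TPM (0.06), none of them called.

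Of 13 copper genes, 12 were tested, 3 were called lower and 1 higher, with a median of -0.07. These shares are near those of all tested genes, 23.7% and 6.82%. The copper importer SLC31A1 fell from 42.3 to 14.6 TPM (-1.47, adjusted p = 3.54e-06), its relative SLC31A2 from 3.86 to 0.417 TPM (-1.80, adjusted p = 0.000199), and CP, the copper-carrying ferroxidase ceruloplasmin, from 61 to 25.9 TPM (-1.21, adjusted p = 6.75e-05). ATOX1, the chaperone that hands copper to the secretory pathway pumps, rose from 171 to 386 TPM (1.17, adjusted p = 2.27e-05). The call of CP was lost under all 4 other scalings (-0.90 to -0.68) and with the length trend removed (-0.54). That of SLC31A1 was lost after median centring (-0.94) and with the length trend removed (-0.71). ATOX1 lost its call after quantile normalisation (0.99) and with centring on short genes (0.79).

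**Figure D4:**
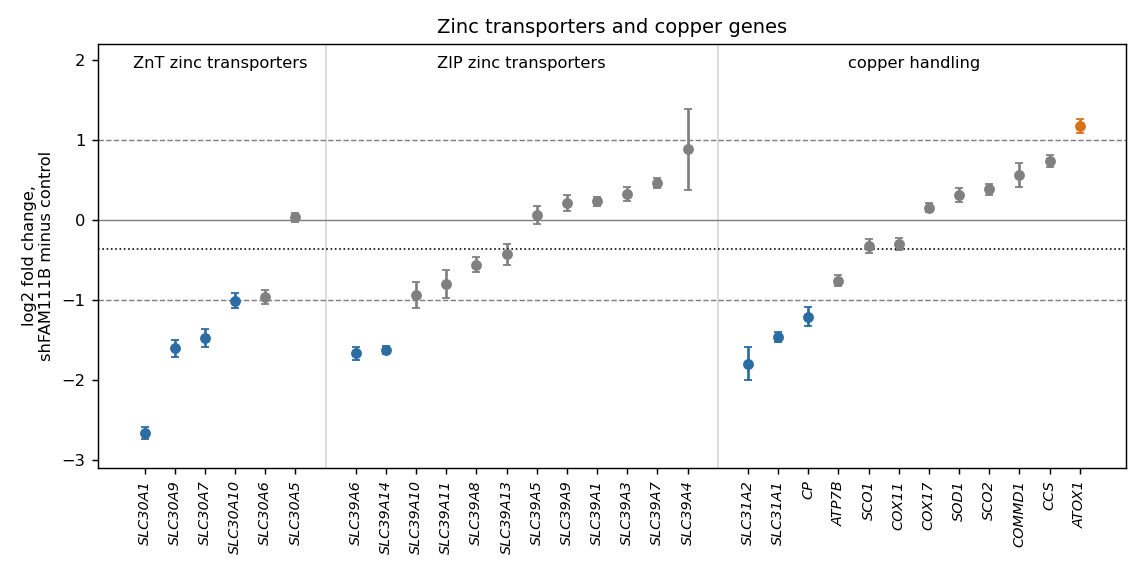
The log2 fold change, shFAM111B minus control (vertical axis, bars are standard errors), of the tested ZnT zinc transporters with SLC30A1, ZIP zinc transporters and copper genes. Blue points were called lower, orange higher and grey not called, the dashed lines mark 2-fold and the dotted line the median of all tested genes (-0.36). SLC30A1 is the lowest point (-2.67) and ATOX1 the only orange one (1.17).

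2 further lists hold genes that respond to other inducers of metallothioneins. Of 10 glucocorticoid-responsive genes, 8 were tested and 5 were called lower, with a median of -1.59 and 0 called higher. Over all tested genes, 23.7% were called lower and 6.82% higher, with a median of -0.36. The glucocorticoid receptor NR3C1 fell from 10.3 to 2.06 TPM (-1.88, adjusted p = 7.08e-06), and the receptor targets FKBP5 (8.88 to 0.957 TPM, -2.34), DUSP1 (126 to 25.4 TPM, -2.27), SGK1 (123 to 26.1 TPM, -2.18) and KLF9 (3.31 to 0.763 TPM, -1.29) fell as well. The other 3 tested genes, named after their values were seen, were not called. TSC22D3, a target that glucocorticoids induce, was at 7.66 and 12.3 TPM and higher in every shFAM111B library (0.63, adjusted p = 0.00322), PER1 at 8.78 and 7.04 TPM with overlapping groups (-0.31), and TAT at 1.79 and 0.933 TPM (-0.53). DUSP1 and SGK1 also respond to growth factors and stress. The calls of KLF9 and NR3C1 were lost with the length trend removed (-0.71 and -0.99), and that of KLF9 after median centring (-0.75).

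Of 9 metal and oxidative stress genes, all were tested, 5 were called lower and 0 higher, with a median of -1.28. Against this, 23.7% of all tested genes were called lower and 6.82% higher, with a median of -0.36. The 5 genes of the list that were called act in glutathione and thioredoxin metabolism. TXNRD1 fell from 270.0 to 26.8 TPM (-3.29), GCLM from 62.4 to 8.05 TPM (-2.81), GCLC from 31.4 to 5.96 TPM (-2.23), SLC7A11 from 12.7 to 2.11 TPM (-2.15) and SRXN1 from 72.2 to 29.1 TPM (-1.28), with limma adjusted p of at most 1.2e-05. The call of SRXN1 was lost under 3 of the 4 other scalings (-0.88 to -0.75) and with the length trend removed (-0.96). The other 4 genes of the list, named after their values were seen, were not called. HMOX1, heme oxygenase, was at 153 and 82.5 TPM (-0.89). The heat shock genes were HSPA1A at 50.1 and 48.5 TPM (-0.04), DNAJB1 at 93.2 and 94.2 TPM (0.02) and HSPA1B at 21.3 and 31.8 TPM, higher in every shFAM111B library (0.56, adjusted p = 0.000208). The part of either list in the metallothionein result was not tested.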

How the data were processed

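RNA was sequenced from 3 control and 3 shFAM111B Huh7 libraries. The authors deposited 1 Huh7 table with the TPM of each library and group means, and with their own comparison in further columns, none of them used here. These deposited columns are the fold ratio, the same on a log2 scale, and p-values before and after adjustment. The submitters' processing notes name hg38, RSEM and DESeq2, and versions are not given in the sources used here. TPM are relative values that keep no sequencing depth, so the depth is unknown, no count test was used and no counting interval is given. TPM also divide by transcript length, which for metallothionein mRNAs is not far above the fragment size selected for the libraries, so these values are sensitive to the length estimate.

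Of 60666 genes, the 14394 that reached 1 TPM in 3 or more of the 6 libraries were kept, and log2(TPM + 1) was fitted in limma 3.58.1 under R 4.3.3 (lmFit, eBayes with trend, no covariates), with Benjamini-Hochberg adjustment over all tested genes. Fold changes on this scale understate those of low genes. Calls followed the thresholds of the study, a 2-fold change with P under 0.05. At these thresholds the study's own comparison gave nearly as many lower as higher genes in Huh7, unlike the calls made here from TPM as deposited. On simulated data the fit was tested with changed genes of known fold. Sums, shares and ratios got no test, because the smallest two-sided p of an exact permutation test with 3 libraries a group is 0.1. Alternatives were a pseudocount of 0.1, 2 other filters, 4 scalings (median-of-ratios, upper-quartile, median centring, quantile), removal of a loess trend on length and expression, a replicate block, leaving out each library, and, added after seeing the data, centring on genes of at most 1000 nt. Sequences, lengths and positions came from GENCODE v29 and RefSeq (GRCh38.p14).

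Named genes were all members, every called gene of the lists, the 3 uncalled genes of each transporter list with the highest mean TPM, and FAM111B. Members and lists were chosen with earlier results of these data known. Replicates agreed within groups, at most 0.889% of genes had identical TPM in a pair, and none of the 6 looked like a copy of another.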

Additional observations from a re-analysis of the deposited data

How the results depend on the processing

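Across the alternatives, the 10 genes gave 158 log2 fold changes, of which 137 kept direction and call. The number called lower (7) was 3 after median-of-ratios scaling, 4 after upper-quartile scaling and 3 after median centring, and 6 to 7 when single libraries were left out. The log2 ratio of the summed level (-1.06) was -0.61, -0.65 and -0.53 under these scalings and -1.14 to -1.0 with single libraries left out. Over all genes, lower calls (3409) numbered 1798, 1910, 1305 and 1849 after median-of-ratios, upper-quartile, median and quantile scaling, 1320 with the length trend removed and 5673 with centring on short genes, and higher calls (981) numbered 2030, 1899, 2597 and 1694 under the 4 scalings, 487 with centring on short genes and 634 with at least 1 TPM required in every library, where fewer genes were tested. Leaving out single libraries gave 3362 to 3554 lower and 918 to 1087 higher calls.

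MT1F turned to 0.08 after median centring. With centring on short genes, an alternative chosen after seeing the data, SLC30A5 was at -0.35, SLC39A1 at -0.15 and SLC39A5 at -0.32, and SLC39A5 ranged from -0.04 (without shFAM111B replicate 3) to 0.19 with single libraries left out. The median of genes of at most 1000 nt was -0.07 with the length trend removed, which that correction fixes near 0. The cause of the other changes was not tested. With the replicate number as a block, 3410 genes were called lower and 996 higher, and no call among the 10 genes changed. Deviations of same-numbered libraries correlated at 0.0349 to 0.0908, and those of differently numbered libraries at -0.0763 to 0.0442. The same-numbered values were mostly the higher ones, but all were small, so the numbers were not taken to pair the samples. Depth is unknown for every value, and MT1H and MTF1 lie near the lowest levels tested.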
